A study of Mus with 2 samples.

Results

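The RNA of 10 genes that mark blood vessel endothelium was followed through CT26 tumors of 1 control mouse and 1 mouse given recombinant mouse interleukin-7 (rIL7). The genes were Pecam1, Cdh5, Kdr, Flt1, Emcn, Cldn5, Egfl7, Vwf, Plvap and Tek, taken by name from the 32285 features of the count matrices. Each was counted by section and by distance from the tissue outline, and the question was which of them were lower in the interior of the rIL7 tumor. All 10 had at least 20 counted molecules in both tumor interiors together, a minimum that 13916 features met.

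Both tumors grew from CT26 colon carcinoma cells placed under the skin of BALB/c mice of 6 to 8 weeks, without any genetic change named in the labels. The rIL7 mouse received 10 µg of rIL7 into the peritoneal cavity on days 11 and 13 after transplantation, the control mouse received phosphate-buffered saline, and both samples carry the label of day 15. Transcripts were captured with Visium, in which a frozen section lies on a grid of barcoded spots and each captured molecule is counted once by its unique molecular identifier (UMI). A spot can cover cells of more than 1 type, so no value here belongs to a purified vessel cell.

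Endothelial cells line blood vessels and hold together through junction proteins such as VE-cadherin and claudin-5. Their growth is driven by vascular endothelial growth factor (VEGF) acting on tyrosine kinase receptors, and their stability depends on angiopoietin signaling through TIE2 and on contact with mural cells, the pericytes and smooth muscle cells of the vessel wall. Tumor vessels are typically irregular and leaky, and they are also the entry route of leukocytes into the tissue.

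The control section held 2219 kept spots with 22951678 UMIs and the rIL7 section 1950 kept spots with 25729233 UMIs. The rim was defined as the spots within 2 grid steps of the outline of the main tissue piece, 401 control spots and 330 rIL7 spots. The interior was the rest of that piece, with 1806 control spots (18387448 UMIs, median 9482 per spot) and 1599 rIL7 spots (21631290 UMIs, median 13162 per spot). Levels are UMIs per 1000000 UMIs of the same compartment (CPM). With 1 section per group no test was possible, and every interval below is a 95% interval that covers counting error only, not the difference between animals or sections. A gene was counted as higher or lower when its CPM ratio reached 1.5-fold. Fewer endothelial cells and less RNA per endothelial cell cannot be told apart in such sums.

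In the rIL7 interior, 4 of the 10 genes were at least 1.5-fold lower than in the control interior, namely Kdr, Cldn5, Egfl7 and Tek. Of all 13916 genes compared, 6.50% were lower by this measure. The Egfl7 and Cldn5 calls lay near the limit of 1.5-fold. The log2 ratio of Egfl7, -0.61, was -0.57 under TMM scaling, -0.58 under median-of-ratios scaling and -0.56 and -0.58 with a rim of 1 and 3 steps, all short of 1.5-fold. That of Cldn5, -0.64, was -0.44 with a rim of 1 step, -0.27 after thinning to equal depth and -0.31 with spots of equal weight. Emcn, at -0.53, passed 1.5-fold with a rim of 1 step (-0.72), with 3 steps (-0.68) and after thinning (-0.68). Kdr and Tek passed under every scaling, rim width, spot filter and weighting tried. None of the 10 was at least 1.5-fold higher, against 5.99% of all genes. The genes did not move together. Flt1 was 1.40-fold higher (interval 1.24 to 1.58), Pecam1 was equal at a ratio of 1.01 (0.883 to 1.17), and the median log2 ratio of the 10 was -0.51, where all genes had a median of -0.02. At the outermost edge the order of the sections was the opposite, and there the summed genes stood at 285 CPM in the rIL7 tumor against 130 CPM in the control tumor.

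**Figure D1:**
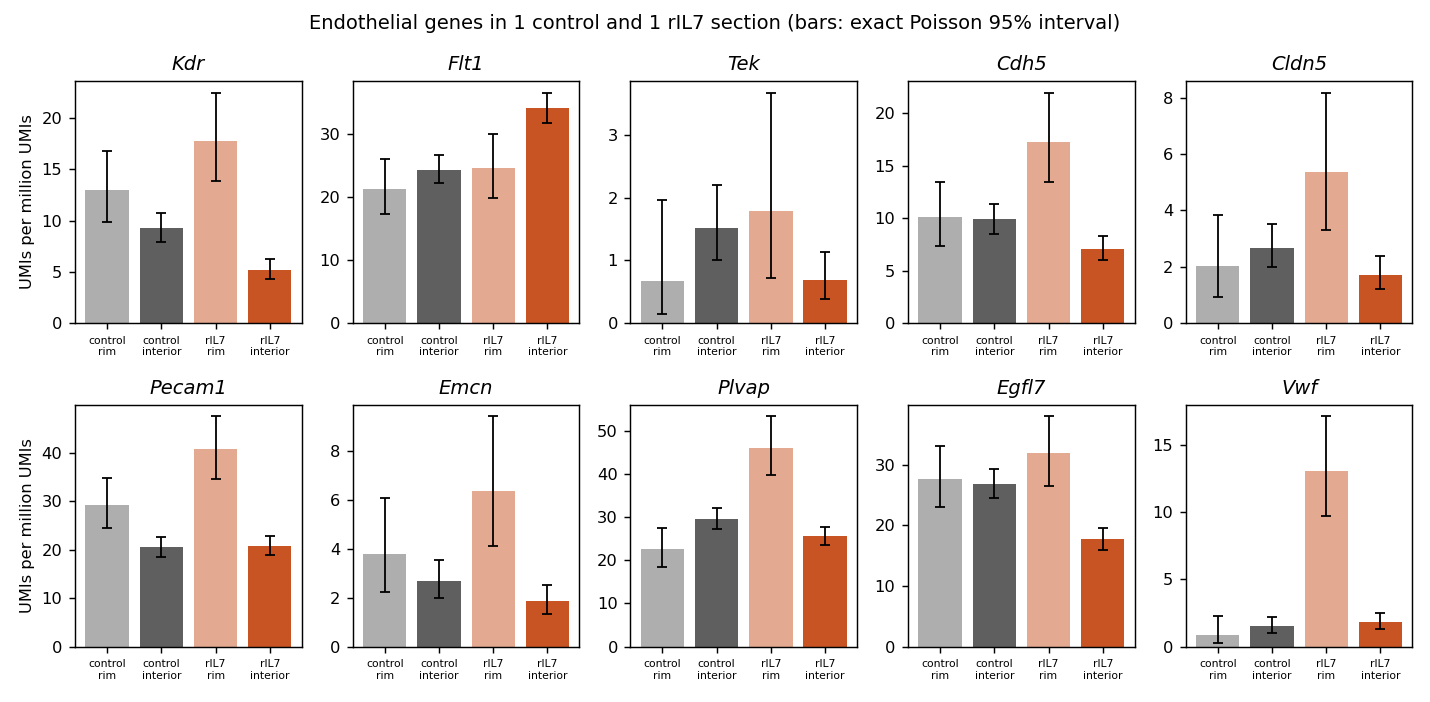
Level of each gene in CPM (vertical axes, 1 scale per gene) in the rim (pale bars) and the interior (dark bars) of the control section (grey) and the rIL7 section (orange), 1 section each, with exact Poisson 95% intervals. Kdr, Cdh5 and Egfl7 had their lowest level in the rIL7 interior, Flt1 had its highest level there, and Vwf stood out in the rIL7 rim.

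The receptors split. Kdr encodes VEGFR2, the main signaling receptor for VEGF-A (chromosome 5, 75932827 to 75979072, GRCm38.p6). It gave 170 UMIs in the control interior and 112 in the rIL7 interior, which is 9.25 and 5.18 CPM, a ratio of 0.560 (0.437 to 0.715). The rIL7 level was thus 1.79-fold lower. Each section was divided into 4 quadrants by the medians of its array rows and columns, and the rIL7 interior quadrants ran from 3.95 to 5.93 CPM, all below the control quadrants at 8.11 to 14.3 CPM.

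Tek encodes TIE2, the angiopoietin receptor (chromosome 4, 94739086 to 94874976). It was rare, with 28 UMIs in the control interior and 15 in the rIL7 interior, or 1.52 and 0.693 CPM. Its ratio of 0.455 was the lowest of the 10, but its interval of 0.226 to 0.882 was wide and its quadrants overlapped.

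Flt1 encodes VEGFR1, which binds VEGF-A with little signaling of its own and is also carried by monocytes and macrophages (chromosome 5, 147561604 to 147726438). It gave 446 UMIs in the control interior and 735 in the rIL7 interior, that is 24.3 and 34.0 CPM. The rIL7 quadrants, at 27.8 to 41.2 CPM, all lay above the control quadrants at 19.7 to 27.2 CPM. Flt1 alone made up 18.8% of the 10 genes' UMIs in the control interior (Clopper-Pearson interval 17.3% to 20.5%) and 29.2% in the rIL7 interior (27.4% to 31.0%). The pair of VEGF receptors therefore differed in opposite directions in the same compartment.

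Among the junction genes, Cdh5, which encodes VE-cadherin (chromosome 8, 104101613 to 104144504), gave 182 UMIs in the control interior and 153 in the rIL7 interior, or 9.90 and 7.07 CPM. Its ratio was 0.715 (0.573 to 0.891), short of 1.5-fold, yet its rIL7 quadrants at 6.29 to 8.20 CPM were all below the control quadrants at 9.62 to 10.4 CPM. Cldn5, which encodes claudin-5 of the tight junction (chromosome 16, 18776847 to 18778262), had 49 and 37 UMIs, or 2.66 and 1.71 CPM. The Cldn5 ratio of 0.642 had an interval of 0.407 to 1, and the quadrants overlapped. Pecam1 encodes CD31, an adhesion molecule of endothelium that platelets and many leukocytes also carry (chromosome 11, 106654213 to 106715281). It had 377 UMIs in the control interior and 450 in the rIL7 interior, or 20.5 and 20.8 CPM, with overlapping quadrants.

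The surface genes stayed within 1.5-fold. Plvap encodes the protein of the diaphragms that span endothelial fenestrae and caveolae (chromosome 8, 71497753 to 71511806). It gave 544 control and 554 rIL7 UMIs in the interiors, or 29.6 and 25.6 CPM. The ratio was 0.866 (0.768 to 0.976), and the quadrants overlapped. Emcn, the sialomucin endomucin of capillaries and veins (chromosome 3, 137341062 to 137431069), had 49 and 40 UMIs, or 2.66 and 1.85 CPM. Its ratio of 0.694 had an interval of 0.445 to 1.08 that spanned 1.

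The secreted factors differed from each other. Egfl7, a matrix-bound factor made by endothelium (chromosome 2, 26581083 to 26592682), gave 494 UMIs in the control interior and 382 in the rIL7 interior, or 26.9 and 17.7 CPM. Its ratio of 0.657 (0.574 to 0.753) passed 1.5-fold with the narrowest interval of the 4, and its rIL7 quadrants at 17.0 to 18.4 CPM all lay below the control quadrants at 24.3 to 30.2 CPM. Vwf, which encodes von Willebrand factor, the adhesive protein that endothelium stores for clotting (chromosome 6, 125552948 to 125686679), had 28 and 40 UMIs in the interiors. These are 1.52 and 1.85 CPM, and the ratio of 1.21 had an interval of 0.731 to 2.04.

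Counting error left 5 genes below 1 in the interior (Cdh5, Kdr, Egfl7, Plvap and Tek), 1 above 1 (Flt1) and 4 whose interval reached or spanned 1 (Pecam1, Emcn, Cldn5 and Vwf). The share of all genes with an interval apart from 1 was not counted, so these counts show nothing particular to the 10. The rIL7 quadrants were all below the control quadrants for 3 of the 10 genes, Cdh5, Kdr and Egfl7, which 8.80% of all genes showed, and all above for Flt1, which 7.77% of all genes showed. Quadrants belong to 1 section each and are not replicates. With Flt1 higher, the 10 genes summed were nearly level at 129 CPM in the control interior and 116 CPM in the rIL7 interior. Their ratio was 0.904 (0.855 to 0.957), and their quadrants overlapped. The other 8 genes, a grouping chosen after the values were seen by leaving out the pair with the most UMIs among those not lower, stood at 84.0 and 61.6 CPM, a ratio of 0.734 (0.682 to 0.790) whose direction that choice fixes.

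**Figure D2:**
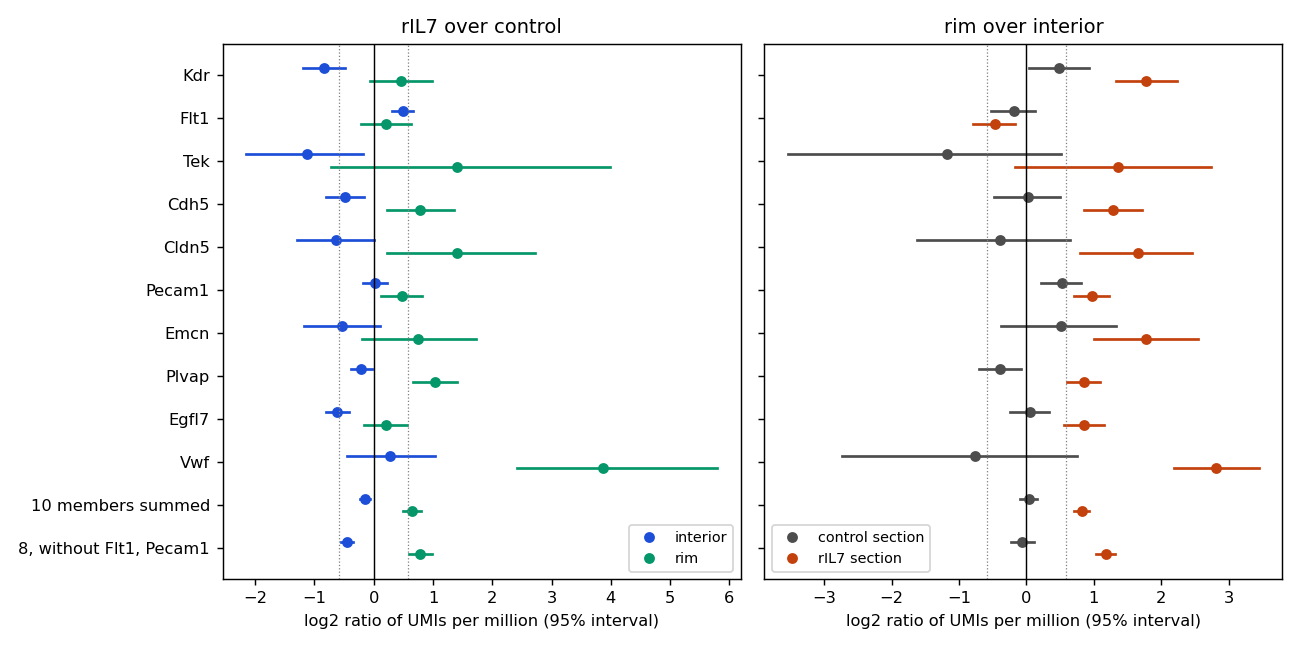
Log2 ratio of the CPM of each gene and of 2 sums (points) with 95% intervals for counting error (lines); left, rIL7 over control in the interior (blue) and the rim (green); right, rim over interior within the control section (grey) and the rIL7 section (orange). Dotted lines mark 1.5-fold, and in the right panel every rIL7 point except Flt1 lies above its control point.

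Several other measurements differed between the interiors beside these genes. Spots of the rIL7 interior were deeper, and mitochondrial UMIs made up 0.131% there and 0.235% in the control interior. In the control interior 88 spots held at least 5 UMIs of skeletal muscle genes and in the rIL7 interior 0 did. Without those spots Kdr was at a log2 ratio of -0.83, Egfl7 at -0.60, Cdh5 at -0.53 and Flt1 at 0.48. The summed macrophage list had a ratio of 1.10 (1.09 to 1.11) with 0 of its 8 genes at least 1.5-fold higher and 1 lower, Adgre1, which encodes F4/80, at 0.643 (0.580 to 0.713). The fibroblast list had 2 genes higher and 1 lower of 8, and the T cell list had 6 higher and 0 lower of 7. The part of these cell types in the result was not tested.

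Depth was also set equal by thinning each spot to 5900 UMIs, which left out 136 shallower control interior spots and 21 rIL7 ones. A Kdr UMI was then present in 5.75% of 1670 control interior spots (4.68% to 6.97%) and 2.53% of 1578 rIL7 interior spots (1.82% to 3.44%), where the unthinned shares were 8.91% and 6.69%. For Egfl7 the thinned shares were 14.3% and 9.82% (unthinned 22.8% and 19.9%), and for Flt1 they were 12.9% and 17.8% (unthinned 21.3% and 36.3%). The share of spots with any of the 10 genes hardly differed, at 48.8% and 47.8% (unthinned 64.0% and 74.0%). The thinning is a chance draw, and over spots of equal weight the log2 ratio of Kdr without a draw was -0.86. No cell type that should lack these genes could be set beside the shares, since a spot is not a single cell.

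Spots with at least 3 UMIs of the 10 genes were counted over 20 redraws of the thinning. They made up 4.73% to 6.53% of control interior spots and 3.61% to 4.75% of rIL7 interior spots, ranges that touch. The draw used for the shares above gave 5.75% and 3.36%, the rIL7 value lying below its range of redraws. For the 8 genes other than Flt1 and Pecam1 the shares were 2.10% to 3.11% and 0.760% to 1.33% over the redraws. The draw used above gave 2.69% and 0.697%. Leaving out genes that were not lower fixes the direction of that difference, which is given as a description.

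Between the sections, the interior difference of the 8 genes was similar in each wide band of distance from the outline. Leaving out genes that were not lower fixes the direction of that difference. The 8 genes stood at 84.7, 83.7 and 83.7 CPM in the control section at 3 to 5, 6 to 9 and 10 or more steps from the outline. In the rIL7 section they stood at 61.7, 62.1 and 61.3 CPM in the same bands. All 10 genes summed were closer, at 129, 133 and 125 CPM in the control bands and 117, 115 and 117 CPM in the rIL7 bands. Flt1 was at 23.7, 25.9 and 23.3 CPM in the control bands and at 32.1, 32.7 and 35.6 CPM in the rIL7 bands. Pooled in these bands, these levels varied little across the interior. The break of the 8 genes in the rIL7 section came at the outline itself. In narrower bands the control levels varied more. The 8 control levels summed to 96.7 CPM (84.9 to 110) at steps 9 to 10 and 67.4 CPM (55.0 to 81.6) at steps 13 to 14. In the rIL7 section the same bands had 62.3 and 61.7 CPM, so the sections were close at steps 13 to 14. Control Flt1 was at 31.7 CPM at steps 9 to 10 and 19.3 CPM at steps 11 to 12.

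**Figure D3:**
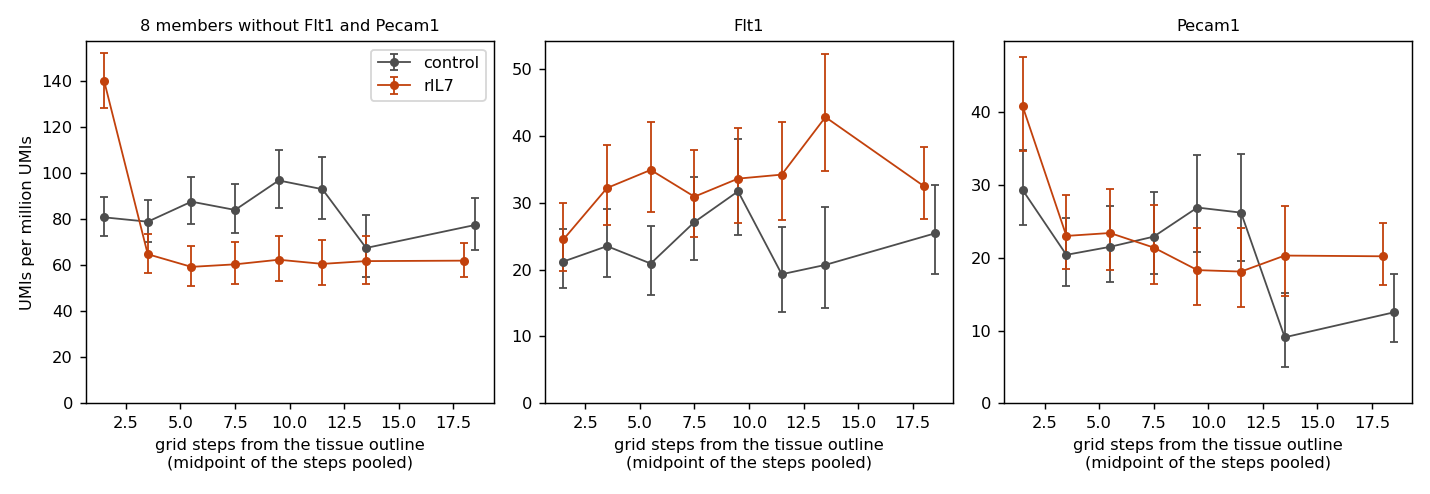
CPM (vertical axis) against grid steps from the tissue outline (horizontal axis, midpoint of the steps pooled) for the 8 genes without Flt1 and Pecam1, for Flt1 and for Pecam1, in the control (grey) and rIL7 (orange) section, with exact Poisson 95% intervals. The 8 genes start at 140 CPM in the rIL7 section and run between 59.2 and 64.7 CPM beyond the rim, while in the control section they start at 80.7 CPM and Pecam1 falls from 29.3 CPM in the rim to 20.4 CPM at the next steps.

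In the rim, 5 of the 9 genes with at least 20 UMIs were at least 1.5-fold higher in the rIL7 section than in the control section, against 12.9% of all genes. They were Vwf, Plvap, Cdh5, Emcn and Cldn5. Plvap gave 101 UMIs in the control rim and 181 in the rIL7 rim, or 22.6 and 46.1 CPM, a ratio of 2.04 (1.59 to 2.63). Cdh5 gave 45 and 68 UMIs, a ratio of 1.72 (1.16 to 2.57). Both passed 1.5-fold in the rim, while in the interior both had ratios below 1 that stayed within 1.5-fold.

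The smaller counts of Cldn5 and Emcn pointed the same way with wider intervals. Cldn5 had 9 and 21 UMIs, a ratio of 2.66 (1.17 to 6.59), and Emcn 17 and 25, a ratio of 1.68 (0.870 to 3.31). Pecam1, with 131 and 160 UMIs, was 1.39-fold higher (1.10 to 1.77), and Kdr was 1.38-fold higher (0.957 to 1.98). Egfl7, with 124 and 125 UMIs, and Flt1, with 95 and 96, each had a ratio of 1.15. Their intervals were 0.889 to 1.48 and 0.858 to 1.55. Tek gave only 3 and 7 UMIs, with a ratio interval of 0.607 to 15.9. The rIL7 rim quadrants all lay above the control ones for 2 of these genes, Pecam1 and Vwf, which 9.27% of all genes showed.

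Vwf was the extreme case, with 4 UMIs in 401 control rim spots and 51 in 330 rIL7 rim spots. The levels were 0.895 and 13.0 CPM, a ratio of 14.5 (5.34 to 55.4). The UMIs were concentrated. They fell in 26 spots, up to 11 in a single spot, and 5 spots held 28 of the 51. Each of the 5 touched the outline, 3 of them lay next to another of the 5 in a single quadrant, and together they also held 37 Plvap, 15 Pecam1 and 15 Cdh5 UMIs. The other 325 rim spots still held 23 Vwf UMIs in 21 spots, or 5.96 CPM, and 144 Plvap UMIs, or 37.3 CPM. All 4 rIL7 rim quadrants, at 4.85 to 22.0 CPM, lay above the control rim quadrants at 0.573 to 1.30 CPM.

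Within the rIL7 section, 9 of the 10 genes were at least 1.5-fold higher in the rim than in the interior, against 12.2% of all genes. The ratios were 7.03 for Vwf, 3.45 for Kdr and for Emcn, 3.13 for Cldn5, 2.57 for Tek, 2.45 for Cdh5, 1.96 for Pecam1 and 1.80 for Egfl7 and for Plvap. Only the Tek interval (0.887 to 6.70) spanned 1. Flt1 was the exception and was lower in the rim, with a ratio of 0.720 (0.576 to 0.892). Within the control section 0 of the 10 genes were higher by that measure, against 3.38% of all genes, and the summed genes were level between rim and interior at 131 and 129 CPM, a ratio of 1.02 (0.930 to 1.12). Single genes went both ways there, with Pecam1 at 1.43 (1.16 to 1.75) and Kdr at 1.40 (1.02 to 1.90) higher in the control rim and Plvap lower at 0.764 (0.611 to 0.946).

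The contrast of the 2 gradients was taken as the rim-over-interior ratio of the rIL7 section divided by that of the control section, with a Wald interval on the log scale. The contrast was 1.73 (1.53 to 1.95) for the 10 genes summed. For the 8 genes, a grouping chosen after values were seen, it was 2.36 (2.03 to 2.74). That larger value follows from leaving out Flt1 and Pecam1, whose own values were the lowest of the 10. Among single genes it was 2.46 (1.61 to 3.74) for Kdr, 2.41 (1.56 to 3.72) for Cdh5, 2.36 (1.80 to 3.09) for Plvap and 1.75 (1.32 to 2.32) for Egfl7. Pecam1 stood lower at 1.37 (1.05 to 1.79), and for Flt1 the value of 0.822 had an interval of 0.605 to 1.12 that spanned 1.

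The excess of the rIL7 rim over the control rim lay, for the summed genes, in the single outermost row of spots. At step 1 the 10 genes gave 517 UMIs in 172 rIL7 spots, or 285 CPM (261 to 311), and 291 UMIs in 211 control spots, or 130 CPM (115 to 146). At step 2 the levels were 136 CPM (121 to 153) and 133 CPM (118 to 149), which overlap. Plvap was at 72.2 CPM at step 1 and 23.7 CPM at step 2 of the rIL7 section, Cdh5 at 25.9 and 9.95 CPM, and Vwf at 25.9 and 1.90 CPM. Kdr and Pecam1 were still above their rIL7 interior levels at step 2, Kdr at 13.3 CPM (8.82 to 19.2) and Pecam1 at 32.7 CPM (25.4 to 41.4). Flt1 showed no such step, with 22.6 CPM at step 1 and 26.1 CPM at step 2.

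**Figure D4:**
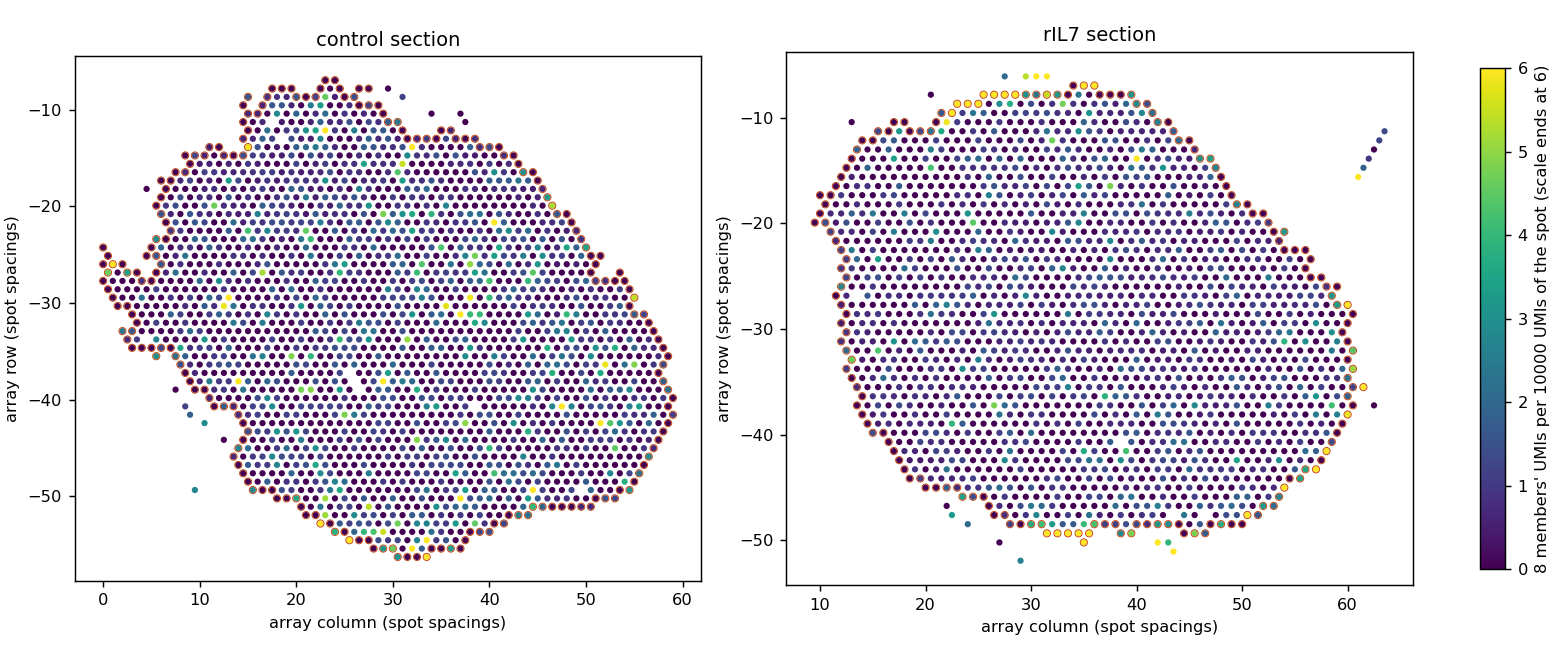
Array position of each kept spot (axes in spot spacings) in the control and the rIL7 section, colored by the UMIs of the 8 genes without Flt1 and Pecam1 per 10000 UMIs of that spot, with the outermost spots of the main piece circled. High spots are scattered through the control interior and sit along stretches of the outline, and on detached fragments, in the rIL7 section.

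Other tissue differed at the edge too, and its part in the result was not tested. At step 1 the summed fibroblast list stood at 4386 CPM in the rIL7 section and 1953 CPM in the control section, the macrophage list at 7509 and 3616 CPM, the T cell list at 346 and 41.5 CPM and the adipocyte list at 14.9 and 4.91 CPM. Keratinocyte genes were the other way round, at 26.5 CPM in the rIL7 section and 171 CPM in the control section, and the CT26 tumor list was at 718 and 1213 CPM. The outermost spots of the sections thus differed in many lists, and CPM is a share of all RNA in the spot.

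The genes of neighboring roles were counted from lists, of which 17 stood beside the 10 genes. Of all genes, 5.99% were at least 1.5-fold higher and 6.50% lower in the rIL7 interior. A further list of 16 endothelial genes had 0 genes at least 1.5-fold higher and 7 lower there, with a median log2 ratio of -0.47. The lower genes were Tie1, the orphan receptor that pairs with TIE2, at a ratio of 0.529 (0.388 to 0.718), and Ramp2, Mmrn2, Sox17, Sox18, Clec14a and Ptprb, named after their values were seen. Of the 3 genes of this list with the most UMIs, Cd34 had a ratio of 0.870 (0.844 to 0.896), Ecscr 1.24 (1.19 to 1.30) and Eng 1.03 (0.875 to 1.21). Cd34 and Ecscr held 88.6% of the list's UMIs, and the other 14 genes summed had a ratio of 0.778 (0.723 to 0.838) in the interior and 1.56 (1.37 to 1.79) in the rim. In the rim over the interior of the rIL7 section, 9 of 14 genes with enough UMIs were higher, against 12.2% of all genes, and 1 was lower. The sum of all 16 genes had a ratio of 0.937 (0.897 to 0.977) there. Without Cd34 and Ecscr the sum had a ratio of 2.08 (1.88 to 2.30) there and 1.04 (0.923 to 1.16) in the control section.

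Of 12 mural cell genes, 0 were higher and 7 lower in the interior, against 6.50% of all genes lower, with a median of -0.63. The 3 with the most UMIs were Pdgfrb, a receptor that recruits pericytes, at a ratio of 1.01 (0.936 to 1.10), Cspg4, which encodes the pericyte proteoglycan NG2, at 0.789 (0.704 to 0.885), and Acta2, smooth muscle actin, at 1.36 (1.18 to 1.57). None of these 3 was among the 7. Rgs5, a pericyte gene named after its value was seen, had a ratio of 0.596 (0.475 to 0.748) in the interior and 1.71 (1.24 to 2.37) in the rim. Des, another of the 7, is also a muscle gene, with 205 UMIs in the control interior, where the muscle spots lay, and 17 in the rIL7 interior.

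The ligand lists did not share the decrease. Among 8 VEGF and angiopoietin ligands and co-receptors 0 were higher and 0 lower, with a median of 0.13. Nrp2, a VEGF co-receptor, had a ratio of 1.29 (1.24 to 1.35), Vegfb 0.747 (0.711 to 0.785) and Angptl4, an angiopoietin-like protein induced by low oxygen, 1.49 (1.41 to 1.58). Vegfa, the ligand of KDR and FLT1, named here for that role, was at 82.5 and 88.1 CPM, a ratio of 1.07 (0.997 to 1.14). The Notch and tip cell list had 0 higher and 1 lower of 8 genes, the lower one being Notch4, an endothelial Notch receptor, at 0.572 (0.456 to 0.717). The basement membrane list had 1 higher and 1 lower of 10. The hypoxia list had 3 higher and 0 lower of 10, with a median of 0.29.

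Leukocyte adhesion genes differed more at the rim than in the interior. In the interior 0 of 4 genes were 1.5-fold higher, with a median of 0.07. In the rim 3 of 4 were, against 12.9% of all genes, with a median of 1.05. The list summed had a ratio of 1.28 (1.23 to 1.34) in the interior and 1.74 (1.61 to 1.88) in the rim. The summed macrophage and fibroblast lists had ratios of 1.87 and 1.77 in the rim, and their part was not tested. Icam1, a ligand for leukocyte integrins, gave 30.0 CPM in the control rim and 84.9 CPM in the rIL7 rim, a ratio of 2.83 (2.31 to 3.49). Vcam1, another such ligand, had a ratio of 1.51 (1.38 to 1.66), and Selp, the P-selectin that endothelium stores in the same granules as von Willebrand factor, gave 7 and 43 UMIs, a ratio of 7.00 (3.12 to 18.4). Selp was named after its value was seen. Platelets also carry P-selectin and von Willebrand factor, and their part in the result was not tested. The platelet list gave 69 UMIs in the control rim and 82 in the rIL7 rim, or 15.4 and 20.9 CPM. Its ratio was 1.35 (0.971 to 1.89), with 2 of its 5 genes, Gp9 among them, at 0 UMIs in each rim. Of the 7 lymphatic genes, Pdpn, which other cells also carry, gave 2944 UMIs in the control interior and 3405 in the rIL7 interior, and each other one had at most 18 UMIs in any compartment. Prox1, the defining gene, was at 0 UMIs in both rims and both interiors.

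**Figure D5:**
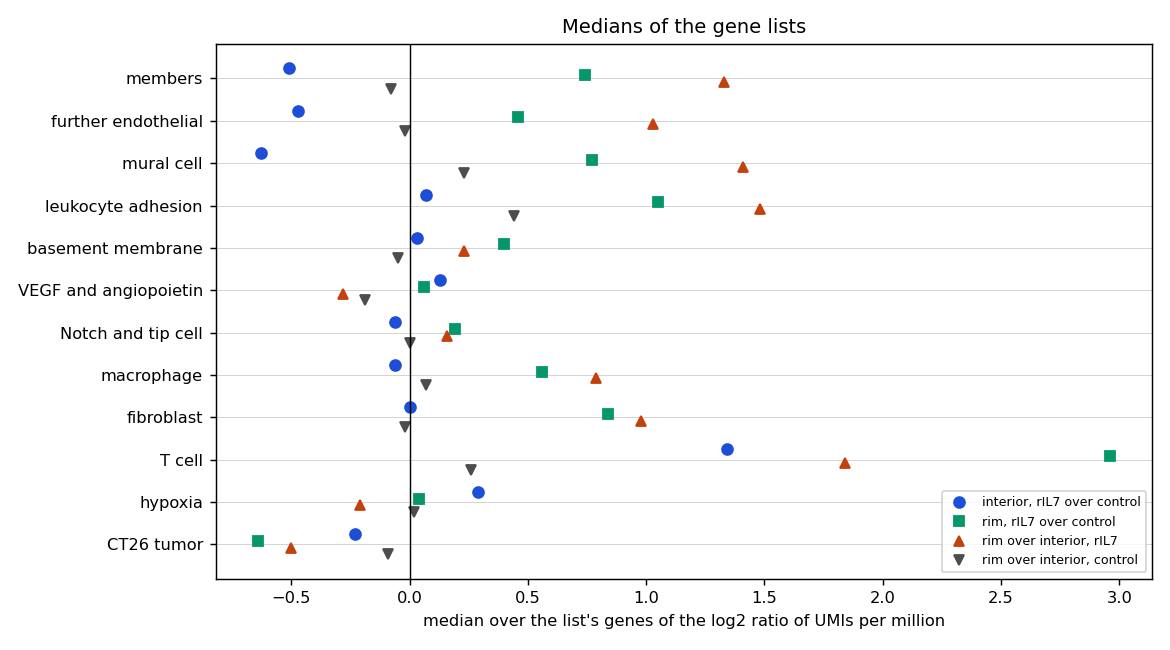
Median over each gene list (rows) of the log2 CPM ratio (horizontal axis) for rIL7 over control in the interior (blue circles) and the rim (green squares) and for the rim over the interior in the rIL7 section (orange triangles up) and the control section (grey triangles down). The 10 genes ("members"), the further endothelial list and the mural list lie below 0 in the interior and above 0 at the rIL7 rim.

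Spot by spot, the 10 genes went together only weakly. Over 2002 control and 1869 rIL7 spots thinned to equal depth, Spearman's rho of each gene with the sum of the other 9 ran from 0.00371 (Kdr, control) to 0.104 (Pecam1, rIL7), apart from Flt1 in the rIL7 section at -0.00774. These spots include the rim. In rIL7 interior spots alone, rho was below 0 for Vwf (-0.0151), Flt1 (-0.00306), Emcn (-0.00294) and Plvap (-0.00144). In control interior spots alone, it was below 0 for Cldn5 (-0.00437). Such values in sparse counts are no finding. Of 9600 genes compared, those most like the summed 10 in both sections were H2-Eb1, Epas1, Igfbp7, Cd74, H2-Ab1, Col4a1, Lrg1 and Fabp4, and their lower rho of the pair ran from 0.0886 to 0.107. The points share libraries and neighboring spots, so no p-value is given.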

How the data were processed

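Visium RNA was measured in 1 control and 1 rIL7 section. The authors counted barcoded reads with Space Ranger 1.1.0 against mm10 and deposited raw UMI counts per gene and spot, with the other deposited files giving barcodes, gene identifiers and spot positions. Image scale factors were not used. Spots over tissue with more than 200 genes and under 10% mitochondrial UMIs were kept, as in the study's methods. The sections share 1702 array barcodes, which mark positions of the array and not shared cells.

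UMIs were summed by section and compartment and divided by the compartment total (CPM). Distance was counted in grid steps inward from the outline of the largest piece of joined spots, with step 1 touching empty array. Intervals were exact Poisson for levels and exact conditional binomial (Clopper-Pearson) for shares and ratios (Wald for a ratio of ratios), at 95%. Only the intervals of ratios were checked, on simulated Poisson counts without clustering of UMIs in spots. A gene at 0 was set to a floor of 3 UMIs in a ratio. Genes entered a comparison with at least 20 UMIs in both compartments together, and 1.5-fold was the size rule. No test was run, since there is 1 section per group. UMIs limit precision: the members had 15 to 735 UMIs per interior.

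The 10 genes, the lists and the rules were chosen with earlier results of these data known. The genes named from a list are among its 3 with the most UMIs, unless stated, and 8 were named by likeness of spot pattern among genes with at least 200 UMIs per section. The further alternatives without Flt1 and Pecam1 and with spots of equal weight were chosen after seeing the data. Ccl21a had more than 1 identifier, which were summed. Coordinates come from RefSeq for GRCm38.p6, where all 10 genes matched. Scaling alternatives used edgeR 4.0.16 and DESeq2 1.42.0 in R 4.3.3, and the rest ran in Python 3.11.15 with scipy 1.17.1.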

Additional observations from a re-analysis of the deposited data

Results flagged for a closer look

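Plvap differed in the direction of its gradient between the sections: the rim level was 1.80 times the interior level in the rIL7 section and 0.764 times in the control section. The difference between the sections was not tested, since each group is 1 section.

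The spots outside the main tissue piece enter neither the rim nor the interior. In the rIL7 section 21 such spots held 119 UMIs of the 10 genes, or 683 CPM (566 to 818), and in the control section 12 such spots held 12 UMIs, or 129 CPM (66.5 to 225). Plvap gave 35 of the rIL7 UMIs (201 CPM), Egfl7 20 (115 CPM), Pecam1 17 (97.6 CPM) and Cdh5 12 (68.9 CPM). The same 21 spots had 10224 CPM of the fibroblast list and 764 CPM of the mural list, against 2091 and 118 CPM in the 12 control spots, and their part in the result was not tested.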

How the results depend on the processing

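No paired analysis was possible because each group holds 1 section. Of 89 values of the summed results under an alternative, 79 stayed within counting error (for the count of genes, within 1.5 times) and 0 called values changed direction. The interior log2 ratio of the summed genes, -0.15, was -0.46 without Pecam1, Flt1 and Vwf and -0.45 without Flt1 and Pecam1. The rIL7 rim over interior, 0.82, was 1.27 with a rim of 1 step, 0.64 with 3 steps, 1.08 without Pecam1, Flt1 and Vwf and 1.18 without Flt1 and Pecam1. The rim log2 ratio of rIL7 over control, 0.64, was 1.13 with 1 step and 0.47 with 3 steps. The count of 4 genes lower in the rIL7 interior was 1 at 2-fold (Tek) and 2 with at least 100 UMIs (Kdr and Egfl7), since fewer genes then qualify. Of 110 values of single genes 3 moved, all under the thinning draw: Pecam1 -0.22, Kdr -1.21 and Vwf 1.08. With spots of equal weight and no draw these were 0.06, -0.86 and 0.63. The count was 3 under TMM and under median-of-ratios scaling, where Egfl7 fell short of 1.5-fold, and 3 with a rim of 1 step and with spots of equal weight. Emcn, Cldn5, Vwf and Tek had at most 49 UMIs per interior, so changes of about 1.5-fold or less were not detectable in them. The limit was higher for Vwf and Tek, whose ratio intervals ran from 0.731 to 2.04 and from 0.226 to 0.882.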

Other observations

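Interior spots thinned to 5900 UMIs were ordered by their UMIs of the hypoxia list and divided into 4 groups of equal size, an ordering chosen after values were seen. The 8 genes without Flt1 and Pecam1 stood at 89.6 CPM (78.2 to 102) in the 418 control spots with the fewest hypoxia UMIs and at 70.7 CPM (60.6 to 82.0) in the 417 with the most. In the rIL7 interior the same levels were 67.8 CPM (57.6 to 79.2) in 395 spots and 50.3 CPM (41.6 to 60.3) in 394 spots. The middle groups had 86.8 and 85.4 CPM in the control interior and 59.6 and 66.7 CPM in the rIL7 interior, where the fall was not steady. These 8 genes summed were thus lowest where hypoxia genes were highest in both sections, with intervals that overlap in part. At the low and the high end the rIL7 level of the 8 genes lay below the control level. Leaving out genes that were not lower favors that direction, which is given as a description. Flt1 did not follow, with 31.8 CPM (24.9 to 39.9) and 38.3 CPM (30.7 to 47.1) at the ends of the rIL7 ordering. At those of the control ordering Flt1 had 21.9 CPM (16.4 to 28.6) and 24.0 CPM (18.3 to 30.9). Pecam1 was close between the sections, at 24.9 CPM (rIL7) and 22.3 CPM (control) at the low end. At the high end Pecam1 was at 19.4 and 19.5 CPM.

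Ordered by UMIs of the mural list, the 8 genes ran from 74.6 CPM (64.2 to 86.2) in the first of 4 groups of control spots to 96.3 CPM (84.5 to 109) in the last, with 71.8 CPM (61.6 to 83.2) in the second, which also held spots without a mural UMI. In the rIL7 interior they ran from 57.9 CPM (48.6 to 68.6) to 68.0 CPM (57.8 to 79.4). Ordered by the CT26 tumor list, the 8 genes were also lowest in the last group, at 72.3 CPM (control) and 49.5 CPM (rIL7). A low level was thus not particular to spots high in hypoxia genes. From the first to the last macrophage group they went from 71.0 to 102 CPM in the control interior. In the rIL7 interior they went from 52.8 to 61.1 CPM, with 71.4 CPM in the third group. Spots of 1 section are not independent of each other, so these are descriptions without a test.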
